A study of Drosophila melanogaster with 15 samples.

Results

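The late L2 midgut was compared with the midguts of both neighbouring stages at once, early L2 and early L3, to find transcripts whose level was transiently high or low at the end of the second larval instar. In each of 9787 transcripts the contrast was the late L2 mean minus the average of the early L2 and early L3 means, on the scale of log2(CPM + 0.5), where CPM is a transcript's count divided by the library total and scaled to the same total in every library. The members are the transcripts whose 5 late L2 values all lay above, or all lay below, the 10 values of the other 2 stages. There were 238 of them, 171 above and 67 below. Of these, 44 were also called, which means a Benjamini-Hochberg adjusted p under 0.05 over all 9787 in limma and a log2 difference of at least 0.5 in size. These 44, 16 higher and 28 lower in late L2, are described one by one or in groups, and called transient for short.

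The larvae were *w1118*, a white-eyed laboratory strain, raised at 25°C under alternating light and dark on a diet of yeast alone, and their sex was not determined. Late L2 midguts were dissected 3 days after egg laying, early L2 midguts at 2 days and early L3 midguts at 4 days, with 5 biological replicates per stage and 15 libraries in all. A replicate was a pool of 30 midguts in late L2, of 60 in early L2 and of 10 in early L3, so that a library averages over animals, and more of them in the younger stages. No stage carried a transgene or received any further treatment.

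Larval instars are separated by moults, which pulses of the steroid hormone ecdysone set in motion while juvenile hormone keeps the animal larval. Before a moult, the epithelia that carry a cuticle, such as the tracheae, the foregut and the hindgut, lay down the next one. The midgut carries no cuticle. Its enterocytes secrete digestive enzymes and take up nutrients, and the gut content is wrapped in the peritrophic matrix, a sleeve of chitin, chitin-binding peritrophins and mucins.

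The recovered library totals ranged from 23981806 to 33902298 reads. Markers of enterocytes (*mex1*, *nub* and *Myo31DF*) summed to between 732.7 and 820.1 CPM in late L2, against 733.1 to 772.3 CPM in early L2 and 691.0 to 810.5 CPM in early L3, and all 6 salivary gland markers were under the filter. All 13 visceral muscle markers were above the filter. In late L2 replicate 4, 4 fat body markers summed to 247.1 CPM and 7 trachea markers to 79.2 CPM, whereas these sums were 2.76 to 21.03 CPM and 137.4 to 170.3 CPM in the other 4 late L2 libraries. In early L2 the fat body markers summed to 0.292 to 1.66 CPM and the trachea markers to 66.7 to 122.7 CPM, and in early L3 to 45.0 to 272.8 CPM and 41.4 to 61.4 CPM. Late L2 replicate 4 was thus within the early L3 range for fat body markers and between the other late L2 libraries and early L3 for trachea markers, and results that turn on it are also given without it. In bulk tissue, fewer cells of a type and less RNA per cell cannot be told apart.

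In the contrast as a whole, 642 transcripts were called higher and 214 lower in late L2 (6.56% and 2.19% of those tested). Most of them were not transient. Of the 642, 573 had late L2 values outside those of early L3 but overlapping early L2, 26 lay outside early L2 alone, 27 outside neither, and 16 outside both. Of the 214, 110 lay outside early L3 alone, 47 outside early L2 alone, 29 outside neither and 28 outside both. Over all transcripts, 1.75% lay above all the other values and 0.685% below them, and 0.163% and 0.286% were called as well. At an adjusted p under 0.05 in limma with no minimum difference, 2623 (26.8%) lay higher in late L2 and 925 (9.45%) lay lower, and the 171 and 67 non-overlapping members were all among them. Against early L2 alone, 331 were called higher (3.38%) and 637 lower (6.51%), and against early L3 alone 1829 higher (18.7%) and 631 lower (6.45%). Both of these comparisons use the same 5 late L2 libraries. The choice of members rests on these same values, so their p-values describe the members and support nothing further.

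**Figure D1:**
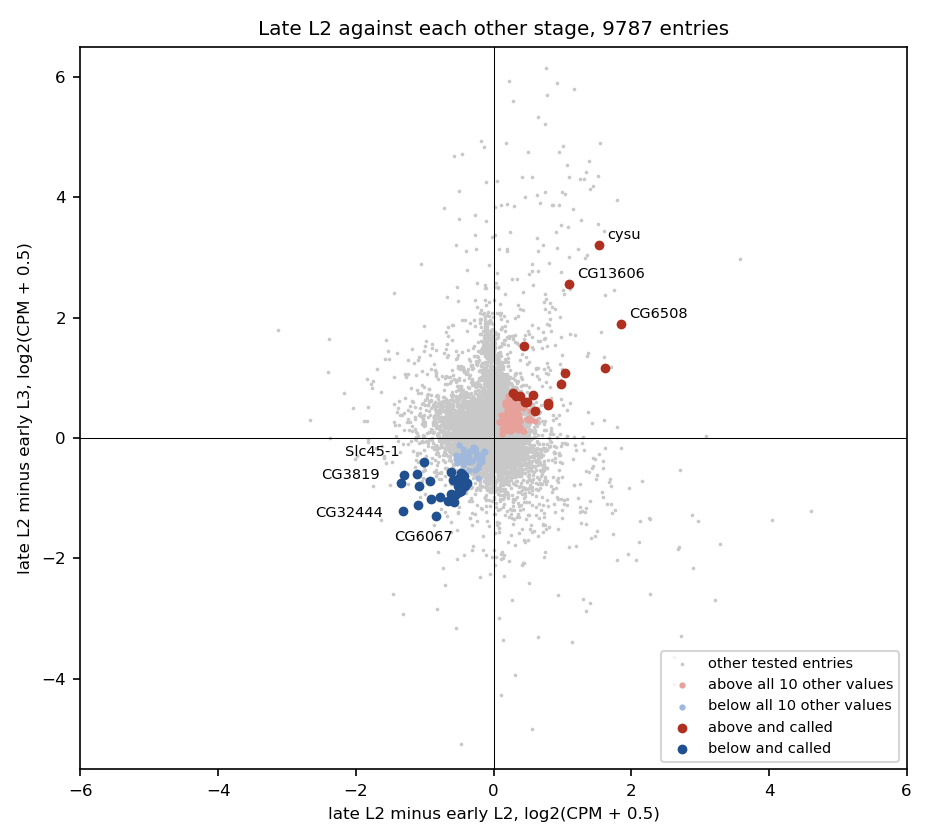
Difference of late L2 from early L2 (x axis) and from early L3 (y axis) on the log2(CPM + 0.5) scale, with 1 point for each of the 9787 tested transcripts. Pale points mark the 171 transcripts above and the 67 below all 10 other values. Dark points mark the 16 and 28 that were also called, which lie in the upper right and lower left quadrants, away from the corners. Most grey points of large size lie along the y axis.

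Principal components were computed from all transcripts. On the leading one, with 59.1% of the variance, early L2 lay at -39.9 to -20.8, late L2 at -24.6 to -5.63 and early L3 at 31.6 to 59.4. Early L3 lay apart, whereas early L2 and late L2 overlapped. Late L2 replicate 4, at -5.63, was the late L2 library nearest early L3, with the others at -24.6 to -16.6. Whether that library was further along in stage was not tested. On the next component, with 11.01%, the late L2 libraries lay at 16.5 to 21.5, above the early L2 libraries at -23.3 to -11.6 and the early L3 libraries at -7.36 to 2.69.

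Among the 16 transient transcripts higher in late L2 were 13 protein-coding genes, 2 long non-coding RNAs and 1 transposable element entry. Their median log2 difference was 0.68, against a median of 0.057 over all transcripts tested. Summed, they came to 555.1 to 665.9 CPM in late L2, against 389.6 to 491.7 CPM in early L2 and 332.6 to 395.2 CPM in early L3. Of the 16, *CG6508* and *CG11382* passed the filter on low values only through their late L2 libraries, so that a difference in them was built into the choice.

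*cysu* (FBgn0038511, chromosome arm 3R, 17425768 to 17446499 in BDGP6.54), which encodes a haem peroxidase, had 8.63, 5.67, 8.50, 4.64 and 11.1 CPM in late L2, against 3.83, 3.92, 3.86, 0.781 and 0.878 CPM in early L2 and 1.88, 0.166, 0.327, 0.0319 and 0.148 CPM in early L3. All late L2 values were above the others, and the low values of early L2 were in replicates 4 and 5, whose trachea marker sums (68.9 and 66.7 CPM) were also the lowest of that stage. In late L2 the lowest value, 4.64 CPM, was in replicate 4, again the library with the lowest trachea sum of its stage. The log2 difference was 2.37 (standard error 0.39, adjusted p = 0.000389 in limma), made up of 1.54 against early L2 and 3.21 against early L3. *CG13606* had the same order of stages, with 2.22, 3.97, 4.63, 2.55 and 2.23 CPM in late L2, against 1.52, 1.46, 1.69, 0.781 and 0.540 CPM in early L2 and 0.363, 0.0332, 0.0727, 0.0638 and 0 CPM in early L3. Its log2 difference was 1.83 (adjusted p = 9.85e-05 in limma). In early L2, *CG13606* was also lowest in replicates 4 and 5, but in late L2 replicate 4, at 2.55 CPM, was above replicates 1 and 5. The part of tracheal tissue in either result was not tested.

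The long non-coding RNA *lncRNA:CR43264* (X, 5831898 to 5832215) had 5.77, 5.93, 4.80, 5.50 and 6.94 CPM in late L2, against 2.13, 1.29, 1.72, 1.07 and 1.66 CPM in early L2 and 2.71, 2.23, 2.40, 1.69 and 2.51 CPM in early L3. Its late L2 mean was 3.68 times that of early L2 and 2.51 times that of early L3, with a log2 difference of 1.39 (adjusted p = 4.39e-05 in limma). The annotation places all of its 318 bases antisense to *CG15765*, a gene with means of 0.107, 0.332 and 0.374 CPM in late L2, early L2 and early L3. The libraries were made with a stranded kit, but whether the authors' counting used the strand is not given in the sources used here, so reads of an antisense pair cannot be told apart with certainty. Of the 44, 20 overlap another annotated gene, 8 of them a gene on the same strand and 18 a gene on the opposite strand, with some overlapping both kinds. *lncRNA:CR46216* had 5.00 to 6.01 CPM in late L2, against 3.46 to 4.16 CPM in early L2 and 2.84 to 4.36 CPM in early L3, and the entry of a *jockey* retrotransposon, *jockey{}817*, had 5.52 to 6.91 CPM in late L2, against 2.38 to 3.68 CPM in early L2 and 2.49 to 4.36 CPM in early L3. How reads of near-identical *jockey* copies were split between entries is not known from the table.

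Peptidase genes were among the members with the most reads. *grsm* (granny smith, 3R, 12950042 to 12967712), which encodes a leucine aminopeptidase, had 134, 138, 143, 109.9 and 123 CPM in late L2, against 80.4, 75.9, 74.4, 65.4 and 75.2 CPM in early L2 and 80.00, 83.9, 100.1, 93.6 and 85.4 CPM in early L3. Late L2 lay above both stages in every library, and its mean by 0.79 against early L2 and 0.54 against early L3 on the log2 scale (adjusted p = 6.56e-05 in limma for the contrast). In the annotation *grsm* shares 1775 bases with *CG14384* on the same strand, so its count may hold some reads of that gene. *CG15253* (2L, 15615357 to 15616351), a predicted metalloprotease of the astacin family, had 33.4, 32.8, 29.1, 25.1 and 29.1 CPM in late L2, against 23.7, 20.5, 23.3, 20.7 and 20.4 CPM in early L2 and 12.8, 7.94, 11.6, 9.03 and 9.35 CPM in early L3. It differs from *grsm* in shape, because its level in early L3 was also under that of early L2, with a log2 difference of -1.08 (adjusted p = 7.71e-07 in limma).

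**Figure D2:**
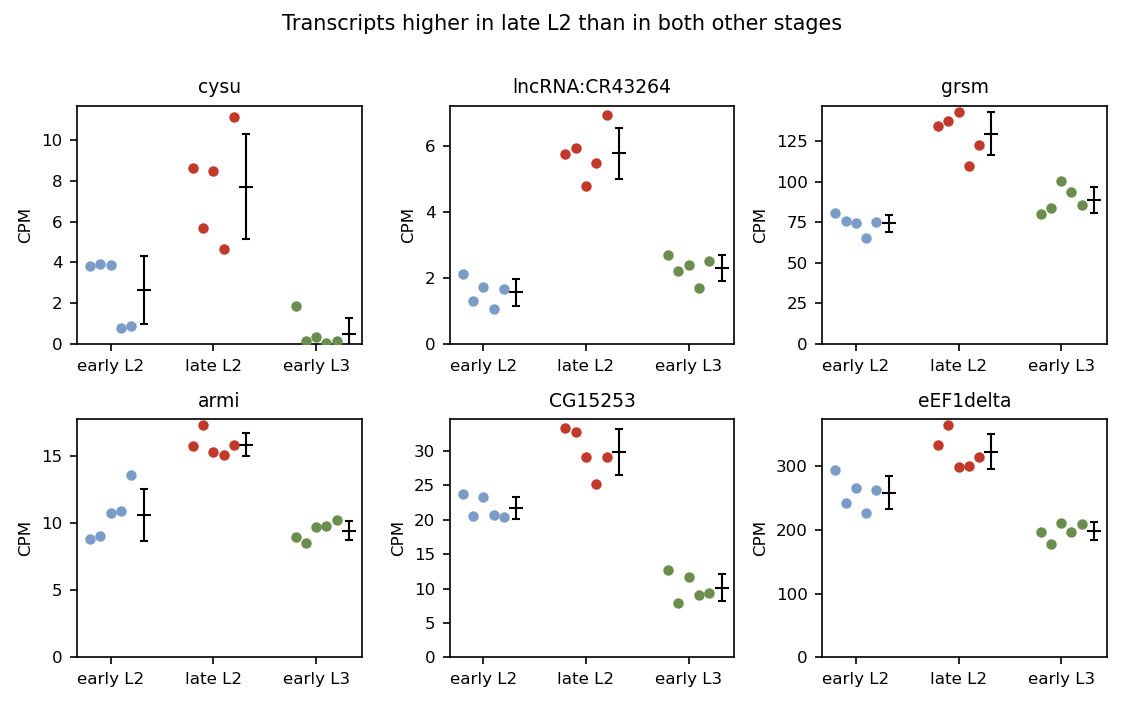
Level in CPM (y axis) in each library of the 3 stages (x axis) for 6 transcripts higher in late L2, with points for single libraries and, beside them, the mean ± SD (n = 5). In each panel the 5 late L2 points lie above the 10 others. *cysu* and *CG15253* are lowest in early L3, whereas *grsm* and *lncRNA:CR43264* are lowest in early L2, and the bar of *cysu* in early L3 is cut at 0.

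Some members act on RNA, chromatin or translation. *armi* (armitage, 3L, 3461317 to 3466314), an RNA helicase of the piRNA pathway, had 15.8, 17.3, 15.3, 15.1 and 15.8 CPM in late L2, against 8.79, 9.05, 10.8, 10.9 and 13.6 CPM in early L2 and 8.98, 8.54, 9.70, 9.76 and 10.2 CPM in early L3 (log2 difference 0.65, adjusted p = 0.000174 in limma). All 4998 bases of *armi* lie within *CG46463* on the same strand in the annotation, so its count may hold reads of either. *eEF1delta*, a subunit of the complex that recharges elongation factor 1 with GTP, had 333, 364, 299, 299.9 and 315 CPM in late L2, against 294, 242, 266, 226 and 262 CPM in early L2 and 196, 177, 212, 197 and 209.5 CPM in early L3. The gap between its lowest late L2 value and highest early L2 value was small. *HmgD*, a chromatin protein of the HMG-box type, had 50.5 to 56.7 CPM in late L2, against 40.6 to 48.8 CPM in early L2 and 28.8 to 32.6 CPM in early L3. *eEF1delta* and *HmgD* sat at the minimum difference, at 0.51 and 0.51, and were no longer called after median-ratio scaling or by edgeR or DESeq2 on the reads recovered from CPM.

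The other higher members were expressed at low levels, except for *CG4880*. *CG6508* had 247 reads in all late L2 libraries together, against 7 in early L2 and 5 in early L3, at 0.416 to 2.93 CPM in late L2, against 0 to 0.0723 CPM in early L2 and 0 to 0.132 CPM in early L3. *CG11382* had 112 reads in late L2, against 18 and 17. *sofe* (sister of feo) had 2.18 to 2.95 CPM in late L2, against 1.12 to 1.45 CPM in early L2 and 1.15 to 1.96 CPM in early L3, the arginine kinase gene *Argk2* had 1.25 to 1.70 CPM in late L2, against 0.604 to 1.12 CPM in early L2 and 0.693 to 1.24 CPM in early L3, and *CG13698* had 1.55 to 2.72 CPM in late L2, against 1.19 to 1.51 CPM in early L2 and 1.02 to 1.42 CPM in early L3. *CG4880* had 19.8 to 21.8 CPM in late L2, against 12.9 to 18.3 CPM in early L2 and 10.9 to 14.9 CPM in early L3. None of *sofe*, *Argk2*, *CG13698* and *CG4880* stayed in the set after median-ratio scaling or quantile normalization, and neither did *lncRNA:CR46216*.

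The 28 transcripts lower in late L2 were 27 protein-coding genes and 1 antisense RNA, with a median log2 difference of -0.73. They summed to 4404 to 5892 CPM in late L2, against 9001 to 10830 CPM in early L2 and 8339 to 9403 CPM in early L3. None of the 28 depended on its late L2 libraries to pass the filter.

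A pair of neighbouring genes was among the most strongly lowered, and *CG3819* held more reads than any other of the 28. *CG3819* and *CG6839* encode predicted nucleases that cut DNA and RNA without sequence preference, and lie on chromosome arm 3L at 18920430 to 18922108 and 18917581 to 18919259, on opposite strands with 1 gene between them. *CG3819* had 3002, 2165, 2292, 1957 and 1767 CPM in late L2, against 5335, 5762, 6025, 4960 and 6014 CPM in early L2 and 3677, 3598, 3476, 3852 and 3801 CPM in early L3. Its late L2 mean was 0.398 times that of early L2 and 0.607 times that of early L3 (log2 difference -1.05, standard error 0.096, adjusted p = 4.39e-05 in limma). *CG6839* had 123, 153, 108, 106 and 77.4 CPM in late L2, against 191, 280.1, 299, 248 and 383 CPM in early L2 and 178, 163, 157, 175 and 176 CPM in early L3. In both genes early L3 lay between the other stages, at -0.61 for *CG3819* and -0.69 for *CG6839* against early L2 on the log2 scale. How reads that fit both genes were assigned is not given in the sources used here.

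Genes for chitin-binding proteins and mucins included members lower in late L2. *CG7248*, which encodes a protein with chitin-binding domains, had 66.6, 66.2, 67.7, 61.4 and 47.5 CPM in late L2, against 108, 148, 139, 109.8 and 174 CPM in early L2 and 98.1, 95.04, 87.1, 87.2 and 96.3 CPM in early L3. *Muc55B*, a mucin, had 1361, 1131, 1301, 1391 and 1142 CPM in late L2, against 1560, 1852, 1903, 1485 and 2171 CPM in early L2 and 2420, 2308, 2093, 2448 and 2489 CPM in early L3. Its 5 late L2 values were all under the lowest early L2 value of 1485 CPM, and early L3 exceeded early L2 by 0.40 on the log2 scale. Of 15 genes of the list of peritrophic matrix and mucins, *Muc55B* was the only one called lower and 3 were called higher (*Mur2B*, *Mur89F* and *Muc91C*), each of these also above early L3 alone in the pairwise contrasts. The shares of all transcripts were 6.56% called higher and 2.19% lower. Without late L2 replicate 4, *Mur2B* was transient and higher, at 24.9 to 32.5 CPM in the other late L2 libraries, against at most 24.1 CPM in early L2 and 16.8 CPM in early L3. The median of the list was -0.003, against 0.057 over all transcripts.

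Among the 28 lower members, 4 act on carbohydrates. This grouping was made after the 28 were seen, without a count of all such genes, and 0.286% of all transcripts were transient and lower. *Mal-A6*, a maltase that splits disaccharides, had 346, 477, 479, 470.1 and 401 CPM in late L2, against 506, 737, 626, 696 and 636 CPM in early L2 and 579, 830.0, 801, 1057 and 959 CPM in early L3 (log2 difference -0.75, adjusted p = 0.000458 in limma). *Slc45-1*, a sugar transporter, had 25.7, 23.9, 23.1, 26.1 and 26.3 CPM in late L2, against 40.97, 43.1, 49.1, 70.7 and 54.6 CPM in early L2 and 32.1, 41.2, 34.6, 31.4 and 27.7 CPM in early L3. Late L2 was the tightest group in *Slc45-1*, and its highest value of 26.3 CPM lay just under the lowest of early L3, 27.7 CPM. *CG32444* (3L, 21636947 to 21639060), a predicted aldose epimerase, had 10.1, 14.5, 17.04, 17.95 and 15.9 CPM in late L2, against 27.99, 30.5, 41.5, 53.4 and 40.2 CPM in early L2 and 32.01, 28.6, 50.1, 33.97 and 33.1 CPM in early L3, and its log2 difference of -1.26 (standard error 0.16) was the largest in size of the 28. *Fuca*, an alpha-L-fucosidase, had 0.816 to 1.17 CPM in late L2, against 1.33 to 2.26 CPM in early L2 and 1.45 to 2.33 CPM in early L3. *Fuca* shares 3916 bases, its whole length, with *CG11714* on the same strand in the annotation, so its count may hold reads of either. Across 13 amylases and maltases, 2 were called lower (*Mal-A6* and *Mal-A5*) and 1 higher (*Mal-B1*), with a median of -0.28. Over all transcripts 2.19% were called lower and 6.56% higher. The median of these 13 was 0.46 against early L2, with 4 called higher and 3 lower, and -0.84 against early L3. The shares of all transcripts against early L2 were 3.38% higher and 6.51% lower. Of 17 sugar and amino acid transporters 2 were called lower (*Slc45-1* and *sbm*) and 0 higher. Of the 26 digestive serine proteases listed, 2 were called lower and 0 higher, and none was outside both stages. *Phae2*, a serine protease outside that list, had 93.03 to 139.9 CPM in late L2, against 142 to 211 CPM in early L2 and 153 to 188 CPM in early L3, and left the set after median-ratio scaling and with edgeR or DESeq2.

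**Figure D3:**
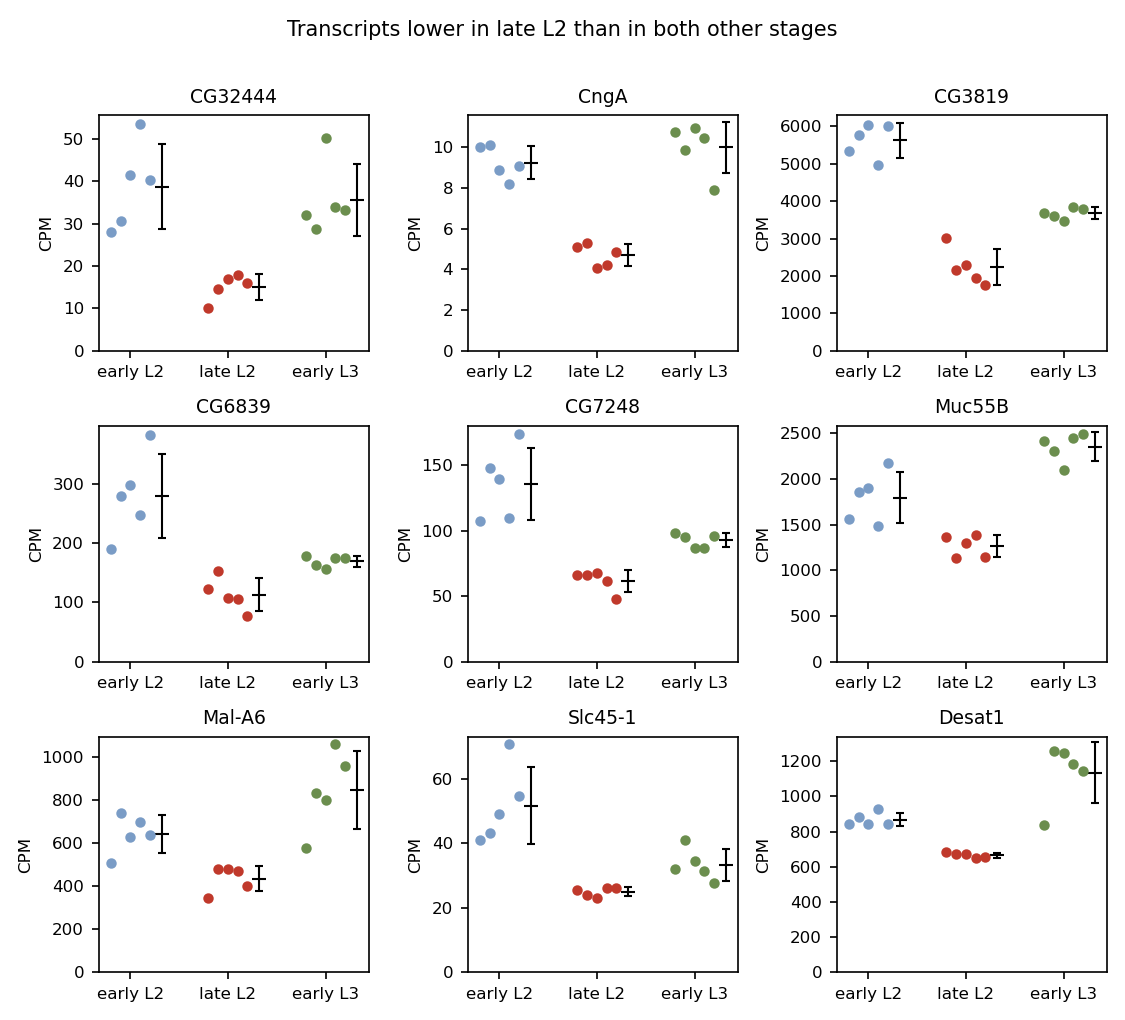
Level in CPM (y axis) in each library of the 3 stages (x axis) for 9 transcripts lower in late L2, drawn with single libraries as points and the mean ± SD (n = 5) beside them. In every panel the late L2 points lie under all others. The nuclease genes *CG3819* and *CG6839* are highest in early L2, and *Muc55B*, *Mal-A6* and *Desat1* in early L3.

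Among the 28 lower members, 3 act on lipids. This grouping too was made after the 28 were seen, without a count of all such genes, and 0.286% of all transcripts were transient and lower. *Desat1* (3R, 12439600 to 12447616), the desaturase that makes monounsaturated fatty acids, had 682, 672, 674, 648 and 656 CPM in late L2, against 841, 884, 846, 926 and 844 CPM in early L2 and 836, 1261, 1244, 1182 and 1145 CPM in early L3. The late L2 values spanned 648 to 682 CPM and were all under the lowest of the other stages (log2 difference -0.57, adjusted p = 0.000196 in limma). *bmm* (brummer), the triglyceride lipase of lipid droplets, had 37.4, 25.2, 37.3, 30.9 and 38.6 CPM in late L2, against 39.7, 47.2, 44.2, 47.1 and 55.1 CPM in early L2 and 60.7, 76.2, 48.9, 62.4 and 64.9 CPM in early L3. *CG11426*, a predicted phosphatidate phosphatase, had 5.46 to 7.57 CPM in late L2, against 7.71 to 10.7 CPM in early L2 and 10.2 to 14.7 CPM in early L3. *FASN1*, fatty acid synthase, was called against each stage, with log2 differences of -0.57 against early L2 and -0.75 against early L3, with 1205, 1832, 1225, 1549 and 1245 CPM in late L2, against 2083, 2087, 1588, 2258 and 2394 CPM in early L2 and 2172, 2083, 2709, 2484 and 2319 CPM in early L3. It was not outside both stages, because late L2 replicate 2, at 1832 CPM, lay above the lowest early L2 value of 1588 CPM. In *Desat1* and *FASN1* the late L2 library with the high fat body sum, replicate 4, was the lowest and the second highest of its stage. Of the 18 genes for fatty acid and triglyceride synthesis, 4 were called lower (*FASN1*, *ACC*, *Desat1* and *Agpat1*) and 0 higher, with a median of -0.14. Over all transcripts 2.19% were called lower. Against early L2 alone the list was mixed, with 3 called higher and 3 lower. Against early L3 alone 2 were called higher and 8 lower. The shares of all transcripts were 3.38% higher and 6.51% lower against early L2, and 18.7% higher and 6.45% lower against early L3. Without late L2 replicate 4, *ATPCL*, which makes acetyl-CoA from citrate, lay under both stages too. Of 33 lipid transport genes 6 were called lower and 0 higher in the contrast, where 2.19% of all transcripts were lower. Against early L2 alone 11 of the 33 were called higher and 2 lower, and against early L3 alone 1 higher and 18 lower. For all transcripts the shares were 3.38% and 6.51% against early L2, and 18.7% and 6.45% against early L3. Summed levels of the list had medians of 6117 CPM in early L2, 10400 CPM in late L2 and 18510 CPM in early L3. Of 15 genes of fatty acid beta-oxidation 1 was called higher and 0 lower, where 6.56% and 2.19% of all transcripts were. Against early L2 3 of the 15 were higher and 0 lower, and against early L3 4 were lower and 0 higher. The shares of all transcripts against each stage are those given above. Neither list had a member outside both stages, where 1.75% of all transcripts lay above and 0.685% below. *FASN1*, *ATPCL* and *ACC*, like others outside the transient set, are named here after their values were seen.

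Genes of immunity and growth signalling included *Tep2* and *Tep3*, which encode secreted thioester proteins related to complement and lie next to each other on 2L, at 7693727 to 7701601 and 7702805 to 7710690, 1203 bases apart on opposite strands. *Tep2* had 2.36, 1.59, 2.52, 1.58 and 1.70 CPM in late L2, against 3.58, 3.00, 2.71, 2.56 and 3.88 CPM in early L2 and 3.73, 5.18, 4.11, 5.74 and 4.31 CPM in early L3. *Tep3* had 3.21, 2.87, 2.21, 2.30 and 2.13 CPM in late L2, against 4.27, 3.34, 3.62, 3.52 and 3.45 CPM in early L2 and 4.62, 3.46, 3.60, 4.82 and 3.98 CPM in early L3. Both were lowest in late L2 in all 5 libraries, at low levels. *Tep3* left the set in 6 of the runs that left libraries out, among them the one without late L2 replicate 4, and neither gene stayed in it after quantile normalization. *Irc*, a catalase induced by infection, had 0.578 to 1.52 CPM in late L2, against 1.63 to 2.32 CPM in early L2 and 2.07 to 3.53 CPM in early L3, and *Idgf4*, a chitinase-like growth factor, had 28.03 to 34.6 CPM in late L2, against 39.5 to 58.9 CPM in early L2 and 50.8 to 58.2 CPM in early L3 (log2 difference -0.66, adjusted p = 0.000134 in limma). All 6 imaginal disc growth factor genes had differences under 0, at -0.66 to -0.12. At an adjusted p under 0.05 in limma 4 of them were lower, as were 9.45% of all transcripts. Against early L2 5 of the 6 were lower at that level and against early L3 2, and *Idgf4* alone lay under both stages. With the minimum difference also asked, 6.51% of all transcripts were lower than early L2 and 6.45% lower than early L3. Without that minimum these shares are not given here. The share of all transcripts under both stages was 0.685%. The family was chosen after these values were seen.

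Regulators and channels made up another part. *CngA*, a subunit of a channel gated by cyclic nucleotides, had 5.12, 5.29, 4.08, 4.20 and 4.85 CPM in late L2, against 9.98, 10.1, 8.86, 8.17 and 9.08 CPM in early L2 and 10.8, 9.83, 10.9, 10.5 and 7.91 CPM in early L3. Its late L2 level was 0.510 times that of early L2 and 0.472 times that of early L3, which overlapped each other (log2 difference -0.96, adjusted p = 4.39e-05 in limma). *Glut4EF*, a transcription factor, had 9.56 to 13.8 CPM in late L2, against 17.97 to 26.3 CPM in early L2 and 19.3 to 33.1 CPM in early L3, and *gol* (goliath), a RING-type ubiquitin ligase, had 2.25 to 3.40 CPM in late L2, against 4.23 to 5.45 CPM in early L2 and 5.71 to 7.77 CPM in early L3. *Glut4EF* shares 114196 bases with *CG46467* on the same strand in the annotation, so its count may hold reads of either. *CG9932*, a predicted zinc finger protein, had 2.57 to 3.47 CPM in late L2, against 3.54 to 5.21 CPM in early L2 and 3.85 to 6.28 CPM in early L3. *kek1* (kekkon 1), an inhibitor of the EGF receptor, had 22 reads in all late L2 libraries together, against 54 in early L2 and 80 in early L3. *Fancl*, a ubiquitin ligase of DNA repair, had 20.7 to 26.4 CPM in late L2, against 27.7 to 37.7 CPM in early L2 and 30.2 to 39.2 CPM in early L3, and the RNA *asRNA:CR44192*, which overlaps its end by 24 bases on the same strand, had 10.4 to 13.1 CPM in late L2, against 15.2 to 19.3 CPM in early L2 and 14.6 to 22.2 CPM in early L3.

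The rest are genes whose role is not stated here. *CG6067* had 6.59, 4.84, 6.06, 5.78 and 4.78 CPM in late L2, against 9.58, 10.4, 9.94, 13.2 and 9.12 CPM in early L2 and 15.5, 14.98, 10.7, 17.7 and 14.4 CPM in early L3 (log2 difference -1.07, adjusted p = 7.11e-05 in limma). *CG42728* had 13.9 to 30.8 CPM in late L2, against 31.8 to 63.9 CPM in early L2 and 31.98 to 46.8 CPM in early L3, and like *Phae2* left the set after median-ratio scaling and with edgeR or DESeq2. *CG15210* had 4.57 to 9.39 CPM in late L2, against 10.2 to 16.5 CPM in early L2 and 9.76 to 14.3 CPM in early L3. *CG12643* had 9.18 to 10.8 CPM in late L2, against 12.9 to 15.7 CPM in early L2 and 11.9 to 19.7 CPM in early L3. *CG7294* had 66 reads in the late L2 libraries together, against 230 in early L2 and 245 in early L3. In all of them late L2 lay under both stages, and early L3 was not called different from early L2.

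The difference of early L3 from early L2 is not contained in the contrast, and sets the stages on either side against each other. Over all transcripts, 965 were called higher (9.86%) and 2378 lower (24.3%) in early L3 than in early L2. Of the 16 transient higher members, 0 were called higher and 3 lower (*cysu*, *CG13606* and *CG15253*), and in 12 of 16 the early L3 and early L2 values overlapped. Of the 28 transient lower members, 0 were called higher and 4 lower (*CG3819*, *CG6839*, *CG7248* and *Slc45-1*), and values overlapped in 24. A transcript that moves steadily in 1 direction cannot lie outside both stages, so these low shares follow in part from the choice of members. Medians of the difference were -0.13 for the 16 and 0.15 for the 28, against -0.15 over all transcripts.

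Another criterion asks for a call against each stage separately, without the condition on overlap. It took 32 transcripts higher (0.327%) and 40 lower (0.409%), with 9 of the 16 and 18 of the 28 among them. The other 23 higher and 22 lower transcripts had at least 1 late L2 value inside the range of the other stages, and 18 of the 23 were lowest of late L2 in replicate 4. Several belong to the apical matrix or cuticle, and these did not all follow replicate 4. The cuticle protein genes *Ccp84Ad* and *Cpr66D* were lowest of late L2 in replicate 2, at 0.340 and 0.227 CPM, and had 4.13 and 1.62 CPM in replicate 4. The 4 described next were lowest in replicate 4. *mas* (masquerade), a serine protease homologue needed for attachment of cells to matrix, had 21.5, 17.2, 13.5, 8.36 and 21.2 CPM in late L2, against 7.16, 8.34, 9.01, 1.92 and 0.844 CPM in early L2 and 4.59, 0.233, 0.327, 0.128 and 0.118 CPM in early L3. *nyo*, whose product carries a zona pellucida domain and sits in the apical matrix, had 9.86, 10.2, 6.63, 2.82 and 9.42 CPM in late L2, against 2.78, 5.13, 3.22, 0.497 and 0.372 CPM in early L2 and 2.67, 0.565, 0.400, 0.766 and 0.855 CPM in early L3. *Osi17*, of the Osiris family, had 2.51 to 12.2 CPM in late L2, against 0.338 to 3.84 CPM in early L2 and 0.0319 to 0.264 CPM in early L3, and *Gasp*, a chitin-binding protein of tracheal cuticle, had 15.4 to 34.95 CPM in late L2, against 6.65 to 19.7 CPM in early L2 and 8.80 to 13.4 CPM in early L3.

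Without late L2 replicate 4, the transient set held 82 transcripts higher in place of 16, with all 16 kept, and 36 lower in place of 28, with 27 kept. In 65 of the 66 gained, replicate 4 was the late L2 library nearest the other stages. This follows largely from the choice, because they entered the set only once that library was left out. With all libraries, 48 of the 66 had already been called. Among the gained were *mas*, *nyo*, *Osi17*, *Gasp*, *ect*, *obst-A*, *serp*, *kkv*, *tpr* and *ImpE1*, picked after their values were seen. Of these, *kkv* is the chitin synthase of cuticle and *serp* a chitin deacetylase of the trachea. Other gained genes, such as *mRpS10*, *mRpS30*, *RnpS1*, *Cdk2* and *nudC*, are not in the cuticle and matrix lists. The 82 of 9787 held 0 of 38 structural cuticle protein genes and 1 of 9 Osiris genes. They also held 2 of 12 zona pellucida genes, 4 of 35 chitin genes and 2 of 73 mitochondrial ribosomal protein genes. Of the 7 trachea markers, *uif*, *serp* and *Gasp* are themselves among the gained. The other 4 (*btl*, *pio*, *trh* and *verm*) summed to 30.75 CPM in late L2 replicate 4 and 44.97 to 57.2 CPM in the other late L2 libraries, against 34.6 to 53.1 CPM in early L2 and 22.1 to 28.4 CPM in early L3. This sum was lowest of late L2 in replicate 4. So was *Gld*, a marker of foregut and hindgut, at 1.72 CPM there and 4.27 to 5.95 CPM in the others. The part of tracheal, foregut or hindgut tissue in the result was not tested. Of the 7 trachea markers 4 were called higher in the contrast with all libraries, of the 4 fat body markers 0 were called, and none of either list lay outside both stages. The shares of all transcripts were 6.56% called higher and 2.19% lower, with 1.75% above and 0.685% below both stages. Without early L2 replicate 1 the set held 36 higher, and without early L2 replicate 5 it held 28.

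**Figure D4:**
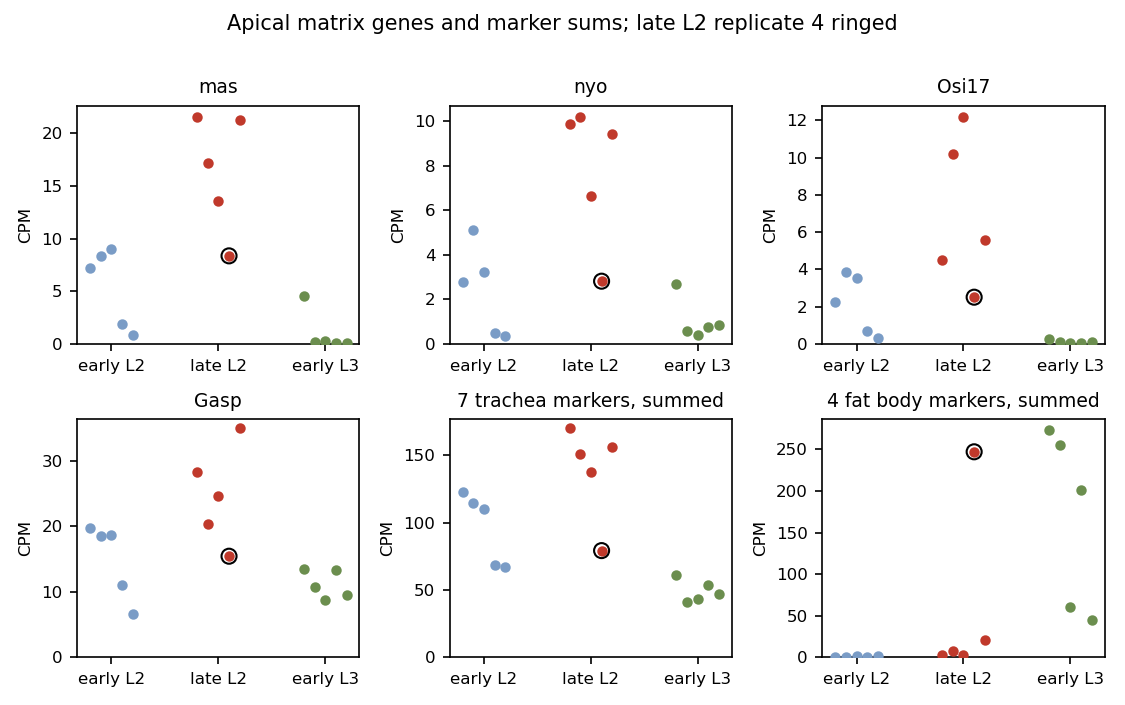
Level in CPM (y axis) in each library of the 3 stages (x axis) for *mas*, *nyo*, *Osi17* and *Gasp*, and the summed level of 7 trachea and of 4 fat body markers, with late L2 replicate 4 ringed. In the 4 genes and in the trachea sum the ringed library is the lowest of late L2, whereas at 247.1 CPM it is the highest of late L2 in the fat body sum.

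The cuticle and matrix lists as a whole were not transient with all libraries in. Of the 9 Osiris genes, 8 were called higher in the contrast, 9 were higher than early L3 and 1 (*Osi17*) higher than early L2, as against 18.7% and 3.38% of all transcripts. None lay above both stages. Of the 12 zona pellucida genes, 7 were called higher, 9 against early L3 and 2 against early L2 with 1 lower. The 38 structural cuticle protein genes had 15 called higher and 2 lower, and the 35 chitin genes 9 higher and 2 lower. Of these, *Idgf4* alone was transient, as a member lower in late L2. Over all transcripts 6.56% were called higher and 2.19% lower. Of the 38 cuticle genes, 23 were higher and 2 lower than early L3, but 2 higher and 3 lower than early L2. Of the 35 chitin genes, 14 were higher and 5 lower than early L3, but 3 higher and 8 lower than early L2. The median of the chitin list in the contrast was -0.025. The 35 ribosome biogenesis genes had 32 called higher, all 35 higher than early L3 and 0 higher than early L2, with no transient member.

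Regulators of the moult and of developmental time held no transient member with all libraries in, and 1 without late L2 replicate 4. Of 13 ecdysone transcription factors, 2 were called higher and 1 lower, and none lay outside both stages with all libraries in. The shares of all transcripts were 6.56% higher and 2.19% lower, with 1.75% above and 0.685% below both stages. Those transient were 0.163% higher and 0.286% lower, so that lists of this size can be expected to hold none. *Hr4*, a nuclear receptor induced by ecdysone, had 38.4 ± 5.78 CPM in late L2, 29.01 ± 13.4 CPM in early L2 and 1.31 ± 1.52 CPM in early L3, and *Blimp-1* had 1.12 ± 0.535 CPM in late L2, 0.643 ± 0.427 CPM in early L2 and 0.139 ± 0.0877 CPM in early L3 (SD, n = 5 each). *Eip74EF*, an ETS-type factor induced by ecdysone, was called lower, with 1.09, 0.794, 1.02, 3.13 and 1.17 CPM in late L2, against 3.07, 2.92, 1.81, 2.49 and 2.43 CPM in early L2 and 5.28, 11.6, 6.32, 12.8 and 4.896 CPM in early L3. Late L2 overlapped early L2 through replicate 4 alone, at 3.13 CPM. Without that library *Eip74EF* lay under both stages, with a log2 difference of -1.71 in place of -1.45 (adjusted p = 0.000227 in limma). Of 6 temporal identity factors, *mamo* and *Syp* were called higher, both with their highest level in early L3 at 14.8 ± 5.86 CPM in late L2, 0.116 ± 0.202 CPM in early L2 and 33.2 ± 3.91 CPM in early L3 for *mamo* and 36.4 ± 7.91 CPM in late L2, 1.84 ± 1.00 CPM in early L2 and 93.2 ± 13.7 CPM in early L3 for *Syp*. Both were highest of late L2 in replicate 4. There *mamo* had 24.4 CPM, against 8.98 to 14.8 CPM in the other late L2 libraries, and *Syp* 48.1 CPM, against 27.8 to 39.98 CPM. *Hr4*, which was far lower in early L3, had 39.6 CPM in replicate 4, within the 29.9 to 46.1 CPM of the others.

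Of the juvenile hormone list, 2 of 6 genes lay under both stages, as did 0.685% of all transcripts, although none reached the minimum difference. *Met*, a juvenile hormone receptor, had 15.3, 13.1, 15.1, 15.5 and 14.1 CPM in late L2, against 16.2, 19.01, 19.9, 19.3 and 21.5 CPM in early L2 and 20.7, 18.1, 17.2, 18.7 and 20.7 CPM in early L3, a log2 difference of -0.38 (adjusted p = 0.00063 in limma). *Jheh2*, an epoxide hydrolase that breaks down the hormone, had 82.2 to 91.9 CPM in late L2, against 97.03 to 108 CPM in early L2 and 111 to 163 CPM in early L3. The other receptor, *gce*, had a difference of -0.12 and was not called. The autophagy genes *Atg17* and *Atg4a* also lay under both stages, at -0.33 and -0.27, as 2 of 19 in their list. *CycE*, the cyclin that drives entry into DNA replication, lay above both, with 12.9, 16.4, 11.3, 14.4 and 12.5 CPM in late L2, against 10.5, 9.09, 9.94, 8.56 and 10.9 CPM in early L2 and 8.71, 8.01, 11.2, 9.12 and 9.26 CPM in early L3 (log2 difference 0.48, adjusted p = 0.000932 in limma), and was the only one of 27 replication genes to do so, where 1.75% of all transcripts lay above both.

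The 171 transcripts above both stages had a median log2 difference of 0.31, so that most differences were small, and some families recurred among them. The families were chosen after these transcripts had been seen, and are given as counts over every tested member with a matching symbol. Of 20 cytosolic aminoacyl-tRNA synthetases, the enzymes that load amino acids onto tRNAs, 6 lay above both stages (*alpha-PheRS*, *TrpRS*, *AlaRS*, *AsnRS*, *GlyRS* and *CysRS*), all 20 had a difference over 0 at 0.15 to 0.52, and 19 had an adjusted p under 0.05 in limma. Over all transcripts, 1.75% lay above both and 26.8% were higher at that adjusted p. Against early L3 19 of the 20 were higher at an adjusted p under 0.05 in limma, and against early L2 only 8, with *ThrRS*, *TyrRS* and *MetRS* at 0.03 to 0.04 on the log2 scale. With the minimum difference also asked, 18.7% of all transcripts were higher than early L3 and 3.38% higher than early L2. Without that minimum these shares are not given here. *alpha-PheRS* had 91.01, 95.6, 80.3, 77.00 and 81.02 CPM in late L2, against 71.3, 61.9, 71.8, 67.8 and 74.1 CPM in early L2 and 60.1, 47.9, 56.5, 52.7 and 60.1 CPM in early L3. *TrpRS* had 99.03, 93.3, 86.4, 88.9 and 93.1 CPM in late L2, against 74.9, 66.7, 77.7, 69.2 and 84.8 CPM in early L2 and 77.8, 62.7, 66.95, 59.1 and 67.02 CPM in early L3. For *TrpRS* the late L2 libraries exceeded early L2 by 0.31 and early L3 by 0.47 on the log2 scale. The median of the 20 was 0.34, and after median-ratio scaling it was 0.27 with 8 above both stages. Of the 3 *AIMP* genes, which encode scaffold proteins of a synthetase complex, 2 lay above both, and *AIMP1* was at 33.9 to 42.3 CPM in late L2, against 28.95 to 33.8 CPM in early L2 and 20.5 to 25.9 CPM in early L3.

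Other families in this set had smaller medians. Of 35 translation initiation factor genes 4 lay above both stages, and 4 did so after median-ratio scaling and after quantile normalization. The share of all transcripts above both stages was 1.75% on CPM. At an adjusted p under 0.05 in limma, late L2 was higher than early L3 in 33 of the 35. Against early L2, 7 were higher and 3 lower at that level. With the minimum difference also asked, 18.7% of all transcripts were higher than early L3. Against early L2 3.38% were then higher and 6.51% lower. Without that minimum these shares are not given here. *eIF1*, above both stages, had 172 to 201 CPM in late L2, against 136 to 168 CPM in early L2 and 138 to 162 CPM in early L3. Of 8 COP9 signalosome genes, which encode a complex that regulates cullin ubiquitin ligases, 5 lay above both with all libraries scaled to their totals (median 0.24), but 1 after median-ratio scaling and 0 after quantile normalization. Of 15 proteasome core genes, 5 lay above both (median 0.18), as did 5 after quantile normalization and 0 after median-ratio scaling. The respiratory chain list, with 66 genes, had 0 called in either direction and 0 outside both stages.

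**Figure D5:**
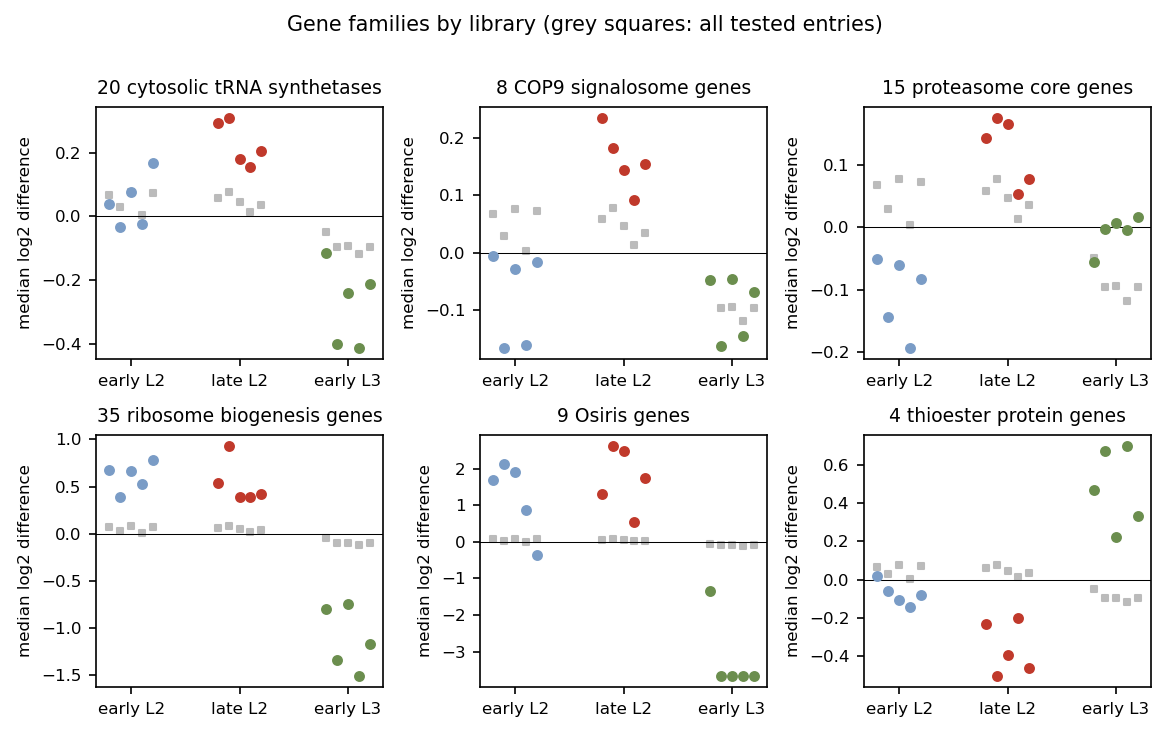
Median over the genes of a family, in each library (coloured points), of the difference of log2(CPM + 0.5) from the gene's mean over the 15 libraries, with the median over all tested transcripts as grey squares, by stage (x axis). The tRNA synthetases, COP9 signalosome and proteasome core are highest in late L2, the ribosome biogenesis and Osiris genes are lowest in early L3, and the thioester protein genes are lowest in late L2.

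The transient set is bounded by the minimum difference of 0.5. Just inside it were *eEF1delta* at 0.51, *HmgD* at 0.511 and *CG13698* at 0.522, and just outside *CG1172* at 0.496, *CG4239* at 0.488 and *AIMP1* at 0.48. Scaling changed the balance of the contrast: 75.0% of the calls were higher in late L2 on CPM, against 62.7% after median-ratio scaling, 57.1% after quantile normalization and 61.35% with DESeq2. Of the 44, 7 higher and 13 lower members stayed in the set under each of the 26 other fits. The 7 were *cysu*, *lncRNA:CR43264*, *CG13606*, *jockey{}817*, *armi*, *grsm* and *CG15253*, and the 13 were *CG32444*, *CngA*, *CG6067*, *Glut4EF*, *CG3819*, *CG15210*, *CG6839*, *CG7248*, *Mal-A6*, *Idgf4*, *Muc55B*, *Slc45-1* and *Desat1*.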

How the data were processed

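Polyadenylated RNA of pooled *w1118* midguts was sequenced from libraries made with a stranded kit. The authors deposited one table of CPM values per transcript and library; for processing, the notes of the submitters list STAR 2.7.10a, Salmon 1.5.2, Trim Galore 0.6.7, FastQC, Picard, MultiQC 1.11 and DESeq2, and the build BDGP6, without roles. A second deposited table holds the authors' own fold changes and p-values and was not used. All 166854 values above 0 were whole reads to within 0.001 after division by the value of 1 read, which gave the library totals.

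Of 12133 entries, 926 of them transposable elements, the 9787 that reached 0.5 CPM in 1 or more libraries were tested. limma 3.58.1 (R 4.3.3) was fitted with an intensity trend to log2(CPM + 0.5) of all 15 libraries, a scale that understates changes of low genes. Adjustment was by Benjamini-Hochberg over all entries. Gene names and coordinates came from Ensembl release 115 (BDGP6.54) for the 12094 identifiers that matched. Names of the rest came from a reference list or the table. Nothing beyond the label of biological replicates says how replicates were separated, so p-values measure the spread between these pools.

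The named genes were the called, non-overlapping genes of at least 5 CPM ranked by the smaller of the differences from the 2 stages (up to 15 each way), up to 4 such genes of each list, the top 3 markers of each marker list, the ecdysone and temporal factors, and the top 3 transposable elements each way; other genes, the families and the low-level members were chosen after their values were seen. The members and lists were chosen with earlier results of these data known. Alternatives were pseudocounts of 0.1 and 4 CPM, other filters, median-ratio and quantile scaling, no trend, a replicate block, a minimum of 1, edgeR 4.0.16 and DESeq2 1.42.0 on the recovered reads, and leaving out libraries. The fits were tested on simulated data. Promoter motifs and sequences were not used here.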

Additional observations from a re-analysis of the deposited data

Results flagged for a closer look

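In 5 of the 81 groups of 5 libraries that were looked at, 1 library lay far from the other 4, where chance gives about 1 in 20 groups. For *cysu*, early L3 replicate 1 was at 1.881 CPM against 0.0319 to 0.3271 CPM in the other early L3 libraries, and for *Desat1* the same library was at 835.5 CPM against 1145 to 1261 CPM. For *CG32444*, early L3 replicate 3 was at 50.08 CPM and the others at 28.6 to 33.97 CPM. For *HmgD*, early L3 replicate 4 was at 28.83 CPM and the others at 31.62 to 32.64 CPM. For *Glut4EF*, late L2 replicate 2 was at 9.563 CPM and the others at 13.03 to 13.84 CPM. Early L3 replicate 1 also lay nearest the younger stages on the first principal component, at 31.6 against 45.1 to 59.4 in the other early L3 libraries. In all 5 genes the late L2 values were outside both stages with that library in.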

How the results depend on the processing

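Of the values recomputed under other settings, 1837 kept their direction and their side of the threshold (counts within 1.5 times), 54 no longer passed it, 23 newly passed it and 1 changed direction: the fat body marker *Lsp1alpha*, with a log2 difference of -0.69 that was not called, was at 11.64 with DESeq2, and the cause was not tested. With a pseudocount of 4 CPM, 370 transcripts were called higher and 101 lower in late L2, 8 and 16 of them transient, and 1541 were lower in early L3 than in early L2. With a minimum log2 difference of 1 these were 153, 36, 5, 4 and 906, and 347 were higher in early L3. Median-ratio scaling left 10 transient higher. Quantile normalization gave 336 lower, 49 transient lower and 1515 higher in early L3, DESeq2 gave 373, 44 and 1471, and edgeR 1491 higher in early L3. Calls against each stage separately gave 32 higher. When 1 library was left out, 528 to 755 were higher, 185 to 223 lower, 15 to 82 transient higher, 27 to 38 transient lower, 906 to 1007 higher and 2288 to 2477 lower in early L3. With early L3 replicate 1 and late L2 replicate 4 both left out, 82 were transient higher. The replicate numbers are shared across stages but name separate pools: same-numbered libraries correlated at -0.182 to 0.205 (median 0.0338), with 4 of 15 pairs over 0.1. With a replicate block, 645 were higher, 214 lower, 16 and 28 transient, and 963 higher and 2389 lower in early L3. Members of a few reads per library, such as *kek1*, are limited by depth. The search for promoter motifs was not run.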
